A study of Mus musculus with 28 samples.

Results

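Ribosome-bound mRNA pulled down from the superior colliculus (SC) of E17.5 mouse embryos was compared between Cre-positive tissue, in which ribosomes of retinal ganglion cell (RGC) axons carry a tag, and Cre-negative tissue, which has no tagged ribosomes. The comparison rests on 4 of the 28 libraries of the series, 2 Cre-positive and 2 Cre-negative. Of 23995 genes listed by symbol, 23991 had a value in all 4 libraries and 7862 were above 0 in at least 1 of them. The 2914 genes that reached 1 FPKM (a fragment density scaled to transcript length and to the fragments mapped in the library) in at least 2 of the 4 libraries were compared. The 4 genes with a missing entry were left out. Actb, Gnb1 and Hsf2 were marked as having too many fragments at the locus in 1 or 2 libraries, and the entry of Draxin was blank in Cre-negative library 2.

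RGCs are the output neurons of the retina, and their axons run through the optic nerve to the SC, the main visual centre of the mouse midbrain. Around birth these axons arrive, extend across the SC and begin to branch, and ribosomes inside them translate mRNA far from the cell body. An axonal mRNA pulled down through a tagged ribosome should therefore be found in Cre-positive SC and be scarce in Cre-negative SC, where what binds the beads without a tag is measured.

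The mice were C57BL/6 and carried the RiboTag allele, in which Cre recombination switches the ribosomal protein gene Rpl22 to a form tagged with haemagglutinin (HA). The allele came from a homozygous RiboTag mother, so Cre-negative littermates carried it too, without recombination. Cre was driven by the Pax6-alpha promoter, which is active in progenitors of the peripheral retina. The tag was therefore neither restricted to RGCs in the eye nor present in the RGCs of the central retina. The SCs of several embryos were pooled for each library, mRNA was precipitated with an antibody against HA, and the cDNA was amplified before sequencing. In such bulk samples, fewer cells or axons of a type and less RNA in each cannot be told apart. Nothing in the labels says that replicates came from separate litters, so the p-values below measure the spread between these libraries.

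The 4 libraries differed widely in depth. FPKM values of lowly measured genes are spaced by what 1 fragment is worth, and from that spacing the depth was estimated at 7279693 fragments for Cre-positive library 1, 11722073 for Cre-positive library 2, 487151 for Cre-negative library 1 and 13674247 for Cre-negative library 2. Cre-negative library 1 was thus 28.1-fold shallower than Cre-negative library 2, and 14.9-fold and 24.1-fold shallower than the Cre-positive libraries. For a transcript of 2 kb, 3 fragments corresponded to 0.206, 0.128, 3.08 and 0.110 FPKM in the same order. The shallowest library nonetheless had the most genes at 1 FPKM or more, 4000, against 2418 and 2477 in the Cre-positive libraries and 2187 in Cre-negative library 2. Its 10 highest genes took 12.9% of the summed FPKM, against 17.8% and 23.4% in Cre-positive libraries 1 and 2 and 20.6% in Cre-negative library 2. These depths and the fragment numbers below are estimates that cover counting error only.

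**Figure D1:**
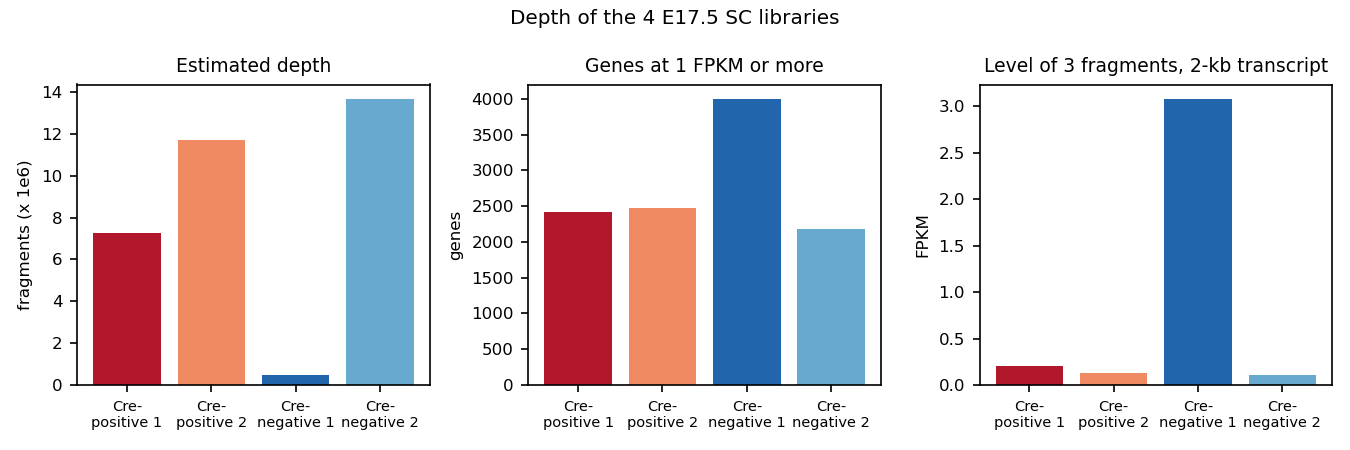
Bars show, for each E17.5 SC library, the estimated depth (axis in units of 1e6 fragments), the number of genes at 1 FPKM or more, and the FPKM that 3 fragments give on a transcript of 2 kb. Cre-negative library 1 has the fewest fragments (487151), the most genes at 1 FPKM or more (4000) and the highest level for 3 fragments (3.08 FPKM).

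Libraries of the same group resembled each other less than libraries with the same replicate number. Over the 2914 genes, Pearson's correlation of log2(FPKM + 1) was 0.254 between the Cre-positive libraries and 0.193 between the Cre-negative libraries. It was 0.548 between Cre-positive library 1 and Cre-negative library 1, and 0.782 between Cre-positive library 2 and Cre-negative library 2. The remaining pairs gave 0.242 and 0.196. These correlations run across genes, which are not independent replicates, and describe the libraries. A gene was often high in 1 library and listed at 0 in its replicate, as 14.6% of genes reaching 10 FPKM in Cre-positive library 1 were in Cre-positive library 2. For Cre-negative library 1 against 2 the share was 27.5%. The median SD within a group was 1.80 on the log2 scale for Cre-positive and 1.96 for Cre-negative SC. Of the 2914 genes, 1264 (43.4%) were above 0 in all 4 libraries.

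**Figure D2:**
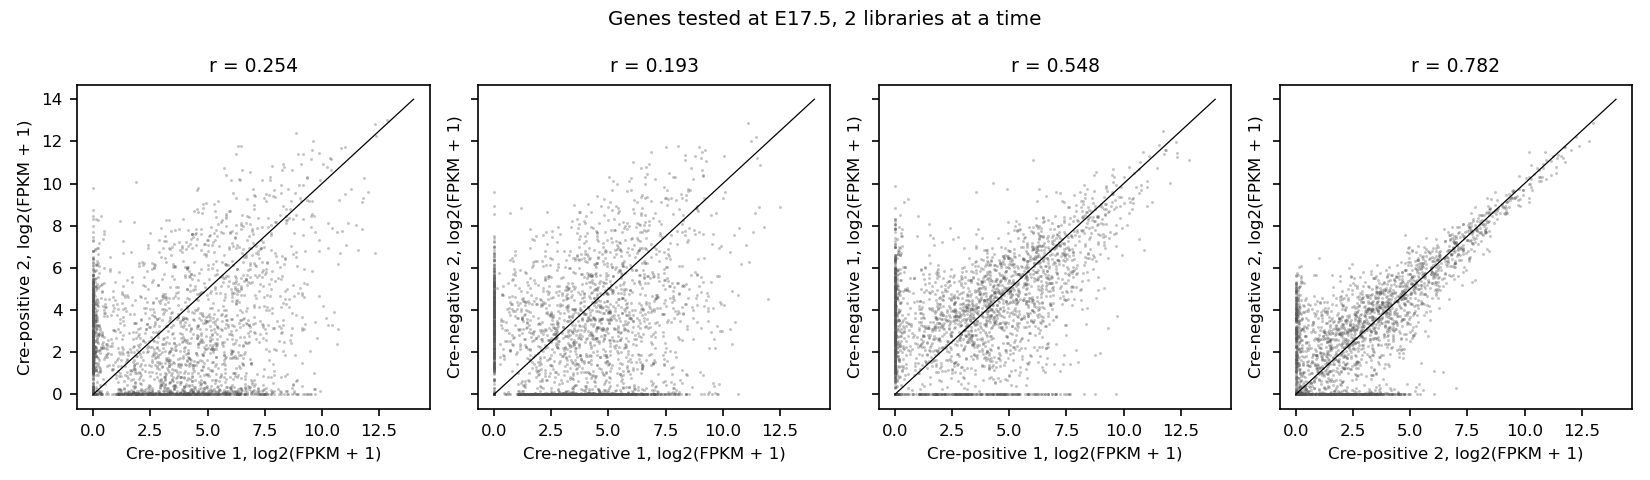
Each point is 1 of the 2914 genes, plotted by log2(FPKM + 1) in a pair of libraries, with the line of equal values. The Cre-positive libraries (r = 0.254) and the Cre-negative libraries (r = 0.193) scatter more widely than the libraries numbered 1 (r = 0.548) and those numbered 2 (r = 0.782), and the points along the axes are genes at or near 0 in 1 library.

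No gene was called higher (percent called 0.0) or lower (percent called 0.0) in Cre-positive SC by limma on log2(FPKM + 1) with Benjamini-Hochberg adjustment over all 2914 genes. The lowest adjusted p was 1.0. At an unadjusted limma p under 0.05 there were 0 genes higher and 6 lower. The median standard error of a gene's log2 difference was 2.58, and for a single value 2 libraries against 2 cannot give an exact two-sided permutation p below 0.333. A limma fit that took its spread from the 16 SC libraries of all stages had a median standard error of 1.54 and called 15 genes higher and 42 lower. Its median standard error was below the 2.58 of the E17.5 libraries alone, so the shared spread was smaller than that of E17.5 itself. The genes it called were in every case genes whose E17.5 groups lay apart by the description that follows. A calculation after NOISeq, the tool named in the study's methods, was made without the package itself and on FPKM rather than read counts. With 0 replaced by 0.5 and a probability threshold of 0.7, it called 201 higher and 540 lower.

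Since no gene passed the test, genes were described by whether the groups overlapped. A gene was said to separate the groups when both libraries of 1 group lay above both of the other by at least 1 on the log2(FPKM + 1) scale. By this description 103 genes (3.53%) were higher in Cre-positive SC and 220 (7.55%) were lower, so that genes lower in tagged tissue outnumbered those higher in it. Genes higher made up 31.9% of those that separated the groups on the deposited scale, 38.6% after median-ratio scaling and 45.6% after quantile normalization. The median log2 difference over all 2914 genes was -0.21 as deposited, 0.03 after median-ratio scaling and 0.06 after quantile normalization. Without Cre-negative library 1, the counts were 305 higher and 386 lower. The filter bears on these numbers, because 85 of the 103 and 168 of the 220 were below 1 FPKM in both libraries of the other group and entered only through the group in which they were high.

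Depth limited the 2 directions unequally. A gene was called measurable when its lower level in the higher group would give at least 10 fragments in each library of the other group. The length used was the median over a gene's protein-coding transcripts, short ones included, so the call is uncertain for some genes. This held for 16 of the 103 genes on the higher side (15.5%) and for 208 of the 220 lower genes (94.5%). The limit was Cre-negative library 1, in which the 103 genes would have given a median of 4.14 fragments and 42 of them fewer than 3. In Cre-negative library 2, 101 of the same 103 would have given at least 10 fragments, with a median of 116. For the lower genes, the values in Cre-negative library 1 rested on a median of 15.6 fragments, and 23 of the 217 with a transcript length had fewer than 3 fragments there. In Cre-negative library 2 the same genes had a median of 233 fragments.

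The genes higher in Cre-positive SC had a median of 18.4 FPKM in Cre-positive library 1 and 4.14 in library 2, and 76 of 103 were higher in library 1 than in library 2. The lower genes had medians of 14.4 and 10.6 FPKM in Cre-negative libraries 1 and 2, and 141 of 220 were higher in library 1. Median transcript length was 2031 bases for the higher genes, 1852 for the lower genes and 2135 over all genes tested. At the edge of the description, Ube2d2a (gap 1.003) and Epha7 (gap 1.02) lay just inside on the higher side, and Polr2h (gap 0.99) and Sccpdh (gap 0.97) just outside. On the lower side Actl6b and Tbc1d14 (gaps of 1.0004 and 1.0034) lay just inside, and Spop (gap 0.99) and Ubxn4 (gap 0.98) just outside.

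**Figure D3:**
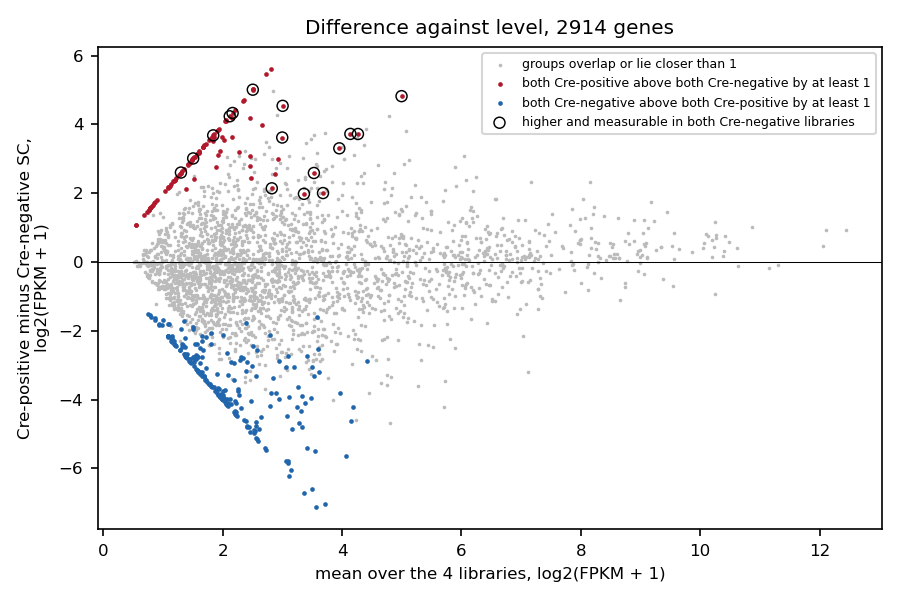
Each point is 1 of the 2914 genes, with its mean log2(FPKM + 1) over the 4 libraries on the x axis and the difference of Cre-positive minus Cre-negative SC on the y axis. Coloured points are the 103 genes higher and the 220 lower without overlap of the groups, and circles mark the 16 higher genes that were measurable in both Cre-negative libraries.

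The 10 genes with the largest gap among the 16 measurable higher genes are given one by one. Rpl7, a protein of the large ribosomal subunit (chromosome 1, 16101295 to 16104662, minus strand, GRCm38), was at 23.2 and 41.9 FPKM in Cre-positive libraries 1 and 2 and listed at 0 in both Cre-negative libraries, with a log2 difference of 5.01 ± 2.92 (SE). Reads of Rpl7, as of other ribosomal protein genes, may be shared with processed copies elsewhere in the genome, so its value is uncertain. Mrpl55, a protein of the mitochondrial ribosome (chromosome 11, 59202486 to 59206134), was at 32.6 and 43.6 FPKM against 0 and 1.77. In both genes Cre-positive library 2 was higher than library 1, which held for 27 of the 103 higher genes.

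Eftud2, a GTPase of the spliceosome (chromosome 11, 102838473 to 102880985), was at 31.1 and 10.1 FPKM in Cre-positive SC and listed at 0 in both Cre-negative libraries. Nap1l2, a histone chaperone of the nervous system, was at 36.2 and 9.91 FPKM against 0 in both. Ss18l1 (also called Crest), a subunit of the neuronal chromatin remodelling complex, was at 18.3 and 7.55 FPKM against 0 in both. These genes were lower in Cre-positive library 2 than in library 1. Bai3 (Adgrb3), an adhesion G protein-coupled receptor of neurons, was at 5.5 and 9.01 FPKM, and Zfx, an X-linked zinc finger protein, at 5.08 and 5.06 FPKM, and both were listed at 0 in Cre-negative SC. Zfx had the closest replicates of the higher genes named here.

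The last 3 of these 10 genes were detected in both groups. Hsd17b12, an enzyme of fatty acid elongation (chromosome 2, 94032689 to 94157964), was at 335 and 84.6 FPKM in Cre-positive SC, against 16.3 and 1.08 FPKM in Cre-negative SC. Its estimated fragments were 4645 and 1887 against 15.1 and 28.2, and its log2 difference was 4.82 ± 2.58 (SE; limma unadjusted p = 0.0616, adjusted p = 1.0). This was the smallest unadjusted limma p among genes higher in Cre-positive SC. Tmem126a, a mitochondrial membrane protein needed for assembly of complex I, was at 73.1 and 31.1 FPKM against 3.26 and 4.71. Bcl9, a co-activator of beta-catenin in Wnt signalling, was at 22.1 and 8.59 FPKM against 2.29 and 2.44. The next smallest p values among higher genes belonged to Cisd3, an iron-sulphur protein of mitochondria, with 305 and 6.85 FPKM, and Slc25a1, the mitochondrial citrate carrier, with 199 and 8.73 FPKM. Both were listed at 0 in Cre-negative SC, and neither was measurable in Cre-negative library 1.

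The lower genes were larger in difference. Vps28, a subunit of the endosomal sorting complex ESCRT-I (chromosome 15, 76622087 to 76626086, minus strand), was at 0.184 and 0.111 FPKM in Cre-positive libraries 1 and 2 and at 182 and 65.3 FPKM in Cre-negative libraries 1 and 2. These levels stood for 1.24 and 1.20 estimated fragments against 82.1 and 827, and its log2 difference was -6.59 ± 3.08 (SE; limma unadjusted p = 0.0327, adjusted p = 1.0). Acot7, a thioesterase that cleaves acyl-CoA in neurons (chromosome 4, 152178134 to 152271855), was listed at 0 in both Cre-positive libraries and at 313 and 33.9 FPKM in Cre-negative SC. At the lower Cre-negative level of Acot7, at least 356 fragments would have been expected in each Cre-positive library. How often amplification loses such an mRNA was not tested.

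Smdt1, a regulator of the mitochondrial calcium uniporter, was at 0.319 and 0 FPKM against 561 and 39.1. Slc25a3, the mitochondrial phosphate carrier, was at 0.0972 and 0.174 FPKM against 106 and 38.0. Atp6v0b, a membrane subunit of the vacuolar proton pump, was listed at 0 in Cre-positive SC, with 61.1 and 29.8 FPKM in Cre-negative SC. Atp5k, a subunit of ATP synthase with the smallest unadjusted limma p of all genes (0.0206), was listed at 0 in Cre-positive SC, with 946 and 19.6 FPKM in Cre-negative SC. The Cre-negative libraries lay far apart in Smdt1 and Atp5k and closer in Slc25a3 and Atp6v0b.

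Of the other lower genes with the largest gaps, 4 were listed at 0 in both Cre-positive libraries. Tvp23b, a Golgi membrane protein, was at 35.7 and 48.4 FPKM in Cre-negative SC. Cdo1, the enzyme that oxidises cysteine, was at 41.4 and 27.4 FPKM. Dnajc8, a J-domain protein associated with splicing, was at 23.8 and 49.6 FPKM, and Abhd16a, a lipase of phosphatidylserine metabolism, at 23.0 and 37.8 FPKM. Carhsp1, an RNA-binding cold-shock protein, was at 0 and 0.0577 FPKM in Cre-positive SC and 34.1 and 28.5 FPKM in Cre-negative SC. In these genes the Cre-negative libraries lay closer to each other than in Smdt1 or Atp5k.

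**Figure D4:**
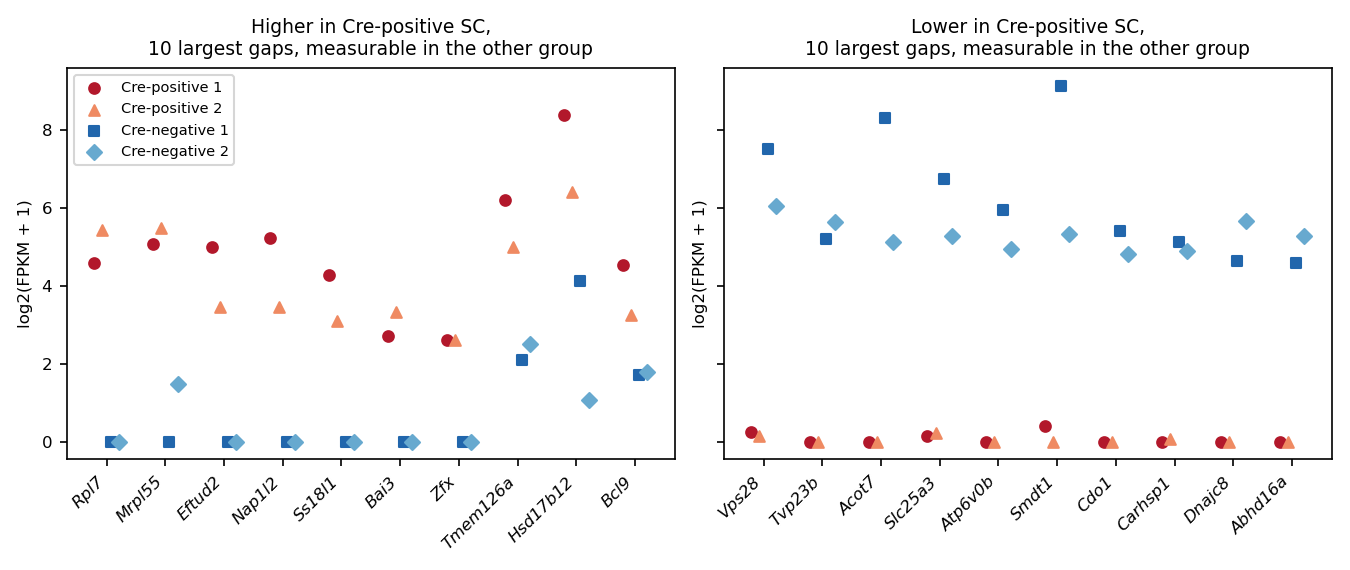
Points give log2(FPKM + 1) in each of the 4 libraries for the 10 genes with the largest gap in each direction among those measurable in the other group. In the left panel both Cre-positive libraries lie above both Cre-negative libraries, and in the right panel both lie below, with all Cre-positive values at or near 0.

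Among lists of related genes, those of growing axons come first. Leaving out 1 library changed the counts of separated genes, so lists are given with their range over the 4 ways of doing so. Of 31 tested genes of the growth cone and axonal cytoskeleton, 0 were separated in either direction (0 to 6 higher and 0 to 12 lower with 1 library left out). The shares over all genes tested were 3.53% higher and 7.55% lower. The median log2 difference of the list was 0.00 beside -0.21 for all genes tested. Tubb5, a beta-tubulin, was at 7306 and 8163 FPKM in Cre-positive SC and 2193 and 7449 FPKM in Cre-negative SC. Dpysl2, the collapsin response mediator CRMP2, was at 5130 and 7257 FPKM against 2430 and 4152, so that its Cre-positive libraries lay above its Cre-negative libraries by only 0.31 on the log2 scale. Gap43, the growth-associated protein of extending axons, was at 186 and 4.98 FPKM in Cre-positive SC and 125 and 0 in Cre-negative SC. For Gap43 and Tubb3, a neuronal tubulin with 403 and 4.36 FPKM against 532 and 46.7, the replicates of each group lay further apart than the groups. These 2 genes were chosen after their values were seen.

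Rpl22 itself, whose protein carries the tag, was at 12.7 and 0.0391 FPKM in Cre-positive SC and 7.84 and 0 FPKM in Cre-negative SC. Its mRNA therefore followed the replicate number and not Cre. An FPKM value over the whole Rpl22 gene does not show whether the allele was recombined, so this level is no check of the labels.

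Of 25 genes listed for RGC identity, 18 were above 0 in any library, 11 were tested and 1 was separated higher (9.09%, beside 3.53% of all genes tested). With 1 library left out the counts were 1 to 3 higher and 0 to 5 lower, with 3 and 0 without Cre-negative library 1. Pou4f2 (Brn3b), a transcription factor of RGCs (chromosome 8, 78433010 to 78436645), was at 18.4 and 5.36 FPKM in Cre-positive SC, against 0.639 and 0 FPKM in Cre-negative SC, with a log2 difference of 3.12 ± 2.55 (SE). It stood on 429 and 201 estimated fragments in the Cre-positive libraries and 0.997 in Cre-negative library 1, where 8.36 would have been expected at the lower Cre-positive level. In retina libraries of the same stage Pou4f2 was at 0.205 and 0.253 FPKM. At P0.5 it was at 10.05 and 1.56 FPKM in Cre-positive and at 48.2 and 5.82 FPKM in Cre-negative SC, where the groups overlapped. Pou4f2 was thus near 0 without the tag at E17.5 and above 5 FPKM without it at P0.5.

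The remaining RGC genes overlapped between groups. Pou4f1 (Brn3a), a transcription factor of RGCs and also of tectal neurons, was at 80.3 and 3501 FPKM in Cre-positive SC and 66.5 and 2060 in Cre-negative SC. Sox11, a transcription factor of young neurons, was at 459 and 5332 FPKM against 264 and 3497. Both genes were far higher in the libraries numbered 2 of either group. Several defining RGC genes were at or near 0: Isl1 was at 0.110 FPKM or less, Sncg at 0.142 or less and Slc17a6, the vesicular glutamate transporter of RGCs, at 0.133 or less in every library. These 3 were chosen after their values were seen. The median log2 difference of the 11 tested genes was -0.35.

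Of 22 tested genes of axon guidance and adhesion, 2 were separated higher (9.09%, beside 3.53% of all genes tested) and 4 lower (18.2%, beside 7.55%) in Cre-positive SC. With 1 library left out the counts were 2 to 4 higher and 5 to 6 lower. Efna2, an ephrin-A ligand of topographic mapping (chromosome 10, 80179482 to 80190010), was at 5.51 and 11.7 FPKM in Cre-positive SC and 0 and 0.0354 FPKM in Cre-negative SC. Only 5.72 fragments of Efna2 would have been expected in Cre-negative library 1, so it was not measurable there. The other higher member was Epha7, an ephrin receptor, at 1.22 and 1.05 FPKM against 0 and 0.0104, close to the edge of the description. Its Cre-positive levels lay below the 3.08 FPKM that 3 fragments give on a 2-kb transcript in Cre-negative library 1. That level is lower for longer transcripts and is not given here for the length of Epha7. Efnb3, an ephrin-B ligand (chromosome 11, 69554092 to 69560205), was at 0 and 0.0761 FPKM in Cre-positive SC, against 17.2 and 22.5 FPKM in Cre-negative SC. Members of the ephrin system thus lay on both sides, and Efna2 on the higher side was not measurable in Cre-negative library 1. Plxna4, a plexin that transduces semaphorin signals in growth cones (chromosome 6, 32144268 to 32588192), was listed at 0 in both Cre-positive libraries and at 5.64 and 5.62 FPKM in Cre-negative SC. Sema6a, a transmembrane semaphorin, was at 0.231 and 0.0915 FPKM against 9.83 and 4.41. The fourth lower member, Plxnb2, a plexin, was at 0.0825 and 0.0245 FPKM against 10.8 and 2.76. Epha7 and Plxnb2 were named after their values were seen. The highest members overlapped: Ncam1, a cell adhesion molecule, was at 781 and 4193 FPKM against 602 and 3058, and Efna5, an ephrin-A of the SC gradient, at 51.9 and 1713 FPKM against 36.1 and 1127.

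Of 14 tested genes of synaptic vesicles and their release, 1 was separated in each direction (7.14%). The shares over all genes tested were 3.53% higher and 7.55% lower. With 1 library left out 1 to 3 members were higher and 1 to 5 lower. Nsf, the ATPase that disassembles SNARE complexes, was at 23.2 and 21.3 FPKM in Cre-positive SC and 0.541 and 0.0766 FPKM in Cre-negative SC. Clta, a clathrin light chain, was at 0.289 and 4.27 FPKM against 28.9 and 48.7. Nsf had some of the closest Cre-positive replicates. With the length of 823 bases used for it, 8.53 fragments would have been expected in Cre-negative library 1. At that length its 0.541 FPKM there stood for only 0.217 of a fragment. The length may therefore be too short, and whether Nsf was measurable there is uncertain. Snap25, a SNARE of the presynaptic membrane, was at 202 and 15.1 FPKM against 332 and 37.2, and Syt4, a synaptotagmin, at 518 and 641 against 283 and 716, and in both genes the groups overlapped.

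Translation and respiration genes followed the replicate number. The summed FPKM of 83 cytosolic ribosomal protein genes was 12051 in Cre-positive library 1, 889 in Cre-positive library 2, 17817 in Cre-negative library 1 and 1171 in Cre-negative library 2. The summed FPKM of 85 oxidative phosphorylation subunits was 5541, 305, 14571 and 475 in the same order. Both sums were thus more than 10-fold higher in the libraries numbered 1, and higher in the Cre-negative than in the Cre-positive library of either number. The sums of RGC identity genes ran the other way, with 705, 9014, 761 and 5656 FPKM. In the libraries numbered 2, Sox11 and Pou4f1 made up most of that sum.

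Of 56 tested ribosomal protein genes, Rpl7 was separated higher (1.79%, beside 3.53% of all genes tested) and 2 were separated lower (3.57%, beside 7.55%). The median log2 difference of the list was -0.45. Rpl37 was at 0 and 0.683 FPKM in Cre-positive SC and 83.6 and 2.66 FPKM in Cre-negative SC, and Rpl30 at 0 and 0.000368 against 43.8 and 1.78. The balance of this list turned with the library left out. The counts were 11 higher and 2 lower without Cre-negative library 1, 1 and 21 without Cre-negative library 2, 1 and 17 without Cre-positive library 1, and 9 and 2 without Cre-positive library 2. Rps15 was at 1652 and 7.46 FPKM against 1630 and 24.8, and Rplp1 at 64.6 and 31.3 FPKM against 2244 and 77.8. For Rplp1 the groups did not overlap, by a gap of 0.26.

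Of 26 tested translation factors, 0 were separated higher (0.0%, beside 3.53% of all genes tested) and 3 lower (11.5%, beside 7.55%). Eef1g, an elongation factor subunit, was at 0 and 0.168 FPKM in Cre-positive SC and 5.57 and 7.31 FPKM in Cre-negative SC. Eif4a2, an RNA helicase of initiation, was at 1.77 and 3.02 FPKM against 7.95 and 22.1, and Eif3l, a subunit of initiation factor 3, at 0.151 and 2.26 against 9.02 and 5.97. With 1 library left out the counts were 1 to 5 higher and 5 to 6 lower. The most abundant members, Eif4a1 with 556 and 11.9 FPKM against 658 and 16.2, and Eef1a1 with 472 and 106 FPKM against 350 and 159, overlapped between the groups.

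Of 47 tested oxidative phosphorylation subunits, 0 were separated higher (beside 3.53% of all genes tested) and 7 lower (14.9%, beside 7.55%). The median log2 difference of the list was -1.16, beside -0.21 for all genes tested. Apart from Atp5k, the members with the largest gaps were Ndufa9, a complex I subunit at 0 and 0.0679 FPKM against 59.0 and 12.6, and Atp5o, an ATP synthase subunit at 0.219 and 1.19 FPKM against 203 and 22.8. Ndufs7, an iron-sulphur subunit of complex I, was at 0 and 2.04 FPKM against 320 and 18.2. In each of them the shallow Cre-negative library was the highest. Without that library 3 members were separated higher and 8 lower, without Cre-negative library 2 they were 1 and 29, without Cre-positive library 1 they were 0 and 10, and without Cre-positive library 2 they were 7 and 12. Ndufb9, with 712 and 0 FPKM against 766 and 0.455, and Cox6a1, with 275 and 8.58 FPKM against 780 and 5.13, differed between replicate numbers and not between groups.

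In smaller lists, 1 of 11 tested proteasome subunits (9.09%) and 1 of 6 tested histone genes (16.7%) were separated lower. The share over all genes tested was 7.55%. With 1 library left out the proteasome gave 0 to 5 higher and 1 to 4 lower, and the histones 0 to 1 higher and 1 to 3 lower. Of 11 tested proteasome subunits, Psmd8, of the regulatory particle, was lower at 0.0971 and 1.39 FPKM against 57.9 and 13.8, while the median log2 difference of the list was 0.81. Psmb3 was at 0 and 13.0 FPKM against 232 and 0, and Psmc5 at 200 and 0 against 1.75 and 0, each high in a different library. Of 6 tested histone genes, Hist3h2ba was lower at 0 and 0.285 FPKM against 26.5 and 37.6. Near-identical histone copies may share these reads. H2afy, a macroH2A variant, was at 292 and 7.86 FPKM against 414 and 14.8, and H2afj at 59.2 and 117 FPKM against 82.1 and 153, and both overlapped.

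Of 21 tested genes of molecular motors, 1 was separated lower (4.76%, beside 7.55% of all genes tested). This was Dctn1, the large subunit of dynactin, at 0 and 0.0391 FPKM in Cre-positive SC against 6.40 and 1.97 FPKM. With 1 library left out 0 to 3 motor genes were higher and 1 to 8 lower. Dctn4, at 296 and 749 FPKM against 581 and 628, and Dync1li1, a dynein light intermediate chain at 340 and 18.7 FPKM against 281 and 10.3, overlapped. Of 36 tested RNA-binding proteins, 3 were separated higher (8.33%, beside 3.53% of all genes tested) and 0 lower (beside 7.55%). With 1 library left out the counts were 3 to 8 higher and 1 to 5 lower, with 8 and 1 without Cre-negative library 1. Hnrnpm, a splicing regulator, was at 71.1 and 8.49 FPKM in Cre-positive SC and listed at 0 in Cre-negative SC. Purb, a binder of purine-rich single-stranded nucleic acid found in neuronal RNA granules, was at 6.33 and 1.74 FPKM against 0 and 0.00825. Hnrnpc was at 13.5 and 10.5 FPKM against 4.47 and 0.0264. None of the 3 was measurable in Cre-negative library 1. Srsf2, a splicing factor at 64.0 and 1158 FPKM against 117 and 2930, and Hnrnpa0, at 1741 and 102 FPKM against 977 and 130, overlapped.

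Of 8 tested genes of axon survival and degeneration, 1 was separated higher (12.5%, beside 3.53% of all genes tested). This was Casp6, a caspase of axon degeneration, at 27.9 and 3.04 FPKM in Cre-positive SC against 0 in both Cre-negative libraries. Only 2.16 fragments would have been expected in Cre-negative library 1, and with 1 library left out 1 to 3 members were higher and 0 to 1 lower. Nmnat2, the NAD-synthesising enzyme that keeps axons alive, was at 26.1 and 13.3 FPKM against 45.5 and 30.9, and Bcl2l1 (Bcl-x), an inhibitor of cell death, at 165 and 1164 FPKM against 293 and 641. Of 20 tested chaperones, 0 were separated higher (beside 3.53% of all genes tested) and 2 lower (beside 7.55%). The lower members were Dnajc8, described above, and Dnajc2, a ribosome-associated chaperone at 0 and 0.166 FPKM against 17.7 and 2.08. With 1 library left out 0 to 2 chaperones were higher and 2 to 6 lower. Dnajc18 was at 311 and 488 FPKM against 68.5 and 390, and Hsp90ab1, an abundant cytosolic chaperone, at 216 and 0.762 FPKM against 119 and 24.2, and both overlapped.

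Markers of the cells that reside in the SC were measured unevenly, and many defining genes were at or near 0. Of 23 tectal neuron genes 15 were above 0 in any library and 7 were tested, and of 20 progenitor genes 18 were above 0 and 8 were tested. En1, En2, Tal2, Slc32a1, Neurod1 and Pax7 were listed at 0 in all 4 libraries, and Sox2, Pax6 and Hes1 were at 0.129 FPKM or less, as seen after their values were known. Gata3, a transcription factor of midbrain GABAergic neurons, was at 396 and 577 FPKM in Cre-positive SC and 84.9 and 382 FPKM in Cre-negative SC, and at 4.82 and 17.4 FPKM in the E17.5 retina libraries. Sox9, of progenitors and glia, was at 145 and 99.6 FPKM against 79.2 and 114, and at 557 and 705 FPKM in E17.5 retina. The label of the tissue thus rests on few of its markers. Of 8 tested progenitor genes 0 were separated, beside 3.53% higher and 7.55% lower of all genes tested. Progenitor counts ran from 0 to 2 higher and 0 to 2 lower with 1 library left out. Of 7 tested tectal neuron genes, 1 was separated higher (14.3%, beside 3.53% of all genes tested). This was Otx2, a transcription factor of the midbrain and also of photoreceptors, at 2.04 and 13.1 FPKM in Cre-positive SC and listed at 0 in Cre-negative SC. Only 1.70 fragments of Otx2 would have been expected in Cre-negative library 1, so it was not measurable there. Otx2 was at 0.474 and 11.4 FPKM in E17.5 retina. Tectal neuron counts ran from 1 to 2 higher, with 0 lower, when 1 library was left out. Dbi, an acyl-CoA-binding protein of glia, was at 474 and 0.584 FPKM against 195 and 0.

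Other cell types were scarce or uneven. None of the markers of oligodendrocytes and astrocytes (13 listed, 6 above 0) or of microglia (10 listed, 3 above 0) entered the comparison. Their summed FPKM was 0.0120, 5.41, 153 and 2.37 for the former and 36.6, 0.0891, 168 and 28.2 for the latter, in Cre-positive libraries 1 and 2 and Cre-negative libraries 1 and 2. Of the 3 tested genes of vessels and meninges, 1 was separated lower (33.3%, beside 7.55% of all genes tested). This was Sparc, a matrix protein, at 0 and 0.157 FPKM against 15.7 and 10.4. Vessel and meninges counts ran from 0 to 1 higher and 1 to 2 lower with 1 library left out. Rgs5, of pericytes, overlapped at 0.318 and 3.61 FPKM against 0 and 10.4. The summed FPKM of that list was 210, 3.89, 44.3 and 31.0.

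Haemoglobin genes differed more between replicate numbers than between groups. Hbb-bs was at 734 and 0.0213 FPKM in Cre-positive SC, against 1630 and 0.0277 FPKM in Cre-negative SC, and Hbb-bt at 10.6 and 0.176 FPKM against 784 and 0.318. Hbb-b1 ran the opposite way, at 0 and 16.8 FPKM against 0 and 35.5, as seen after its values were known. These paralogs share reads, so their split is uncertain, but the summed FPKM of red blood cell genes was 762, 17.4, 2489 and 41.7. Of the 4 tested, 0 were separated, beside 3.53% higher and 7.55% lower of all genes tested. Red blood cell counts were 0 higher and 0 to 2 lower with 1 library left out. Genes of eye cells other than RGCs summed to 15.3, 18.5, 60.9 and 8.98 FPKM over 30 genes. Of these 4 were tested, and only Otx2 was separated higher (25.0%, beside 3.53% of all genes tested). Otx2 was not measurable in Cre-negative library 1. Eye cell counts ran from 1 to 2 higher and 0 to 3 lower with 1 library left out. Cryaa and Cryga, lens crystallins, were at 3.83 and 1.64 FPKM against 10.1 and 0.295, and at 1.78 and 0.364 FPKM against 21.8 and 0. In retina Cryaa was at 112 and 167 FPKM. The part of blood, lens or vessel RNA in the differences between libraries was not tested.

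**Figure D5:**
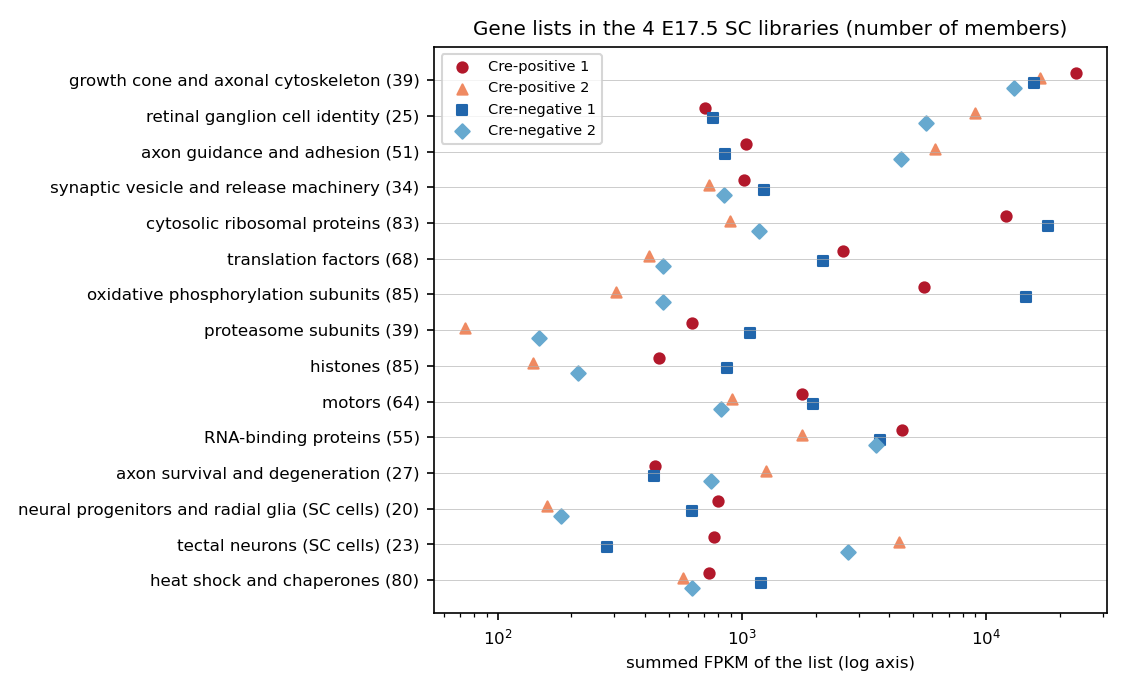
Points give the summed FPKM of each gene list with at least 6 tested genes, on a log axis, in each of the 4 libraries, with the number of members in brackets. Circles and squares, the libraries numbered 1, lie together and apart from triangles and diamonds, the libraries numbered 2, for ribosomal proteins (12051 and 17817 against 889 and 1171) and oxidative phosphorylation subunits (5541 and 14571 against 305 and 475).

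The genes that separated the groups at E17.5 were then looked up in SC libraries of later stages, which share no library with the E17.5 comparison. At P0.5, 32 of the 103 genes higher at E17.5 (31.1%) were again separated higher, and 890 of all 2914 genes tested at E17.5 (30.5%) were. The share was therefore that of the background. Of the 220 genes lower at E17.5, 93 (42.3%) were separated higher at P0.5, in the opposite direction, and 7 (3.18%) were separated lower, beside 163 (5.59%) of all genes. At P7.5, 0 of the 103 were separated higher and 3 lower, and of the 220 there were 0 higher and 2 lower, beside 0.824% higher and 2.33% lower of all genes. In the adult the 103 gave 3 higher and 1 lower, and the 220 gave 4 higher and 4 lower, beside 2.64% and 2.23% of all genes.

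Of the 20 named genes higher at E17.5, 7 were separated higher at P0.5, 0 lower, 7 were listed at 0 in all 4 P0.5 libraries and the other 6 were in none of these sets. Eftud2 was higher in Cre-positive SC at both stages, with 22.6 and 25.0 FPKM against 0.141 and 0.0267 at P0.5. Rpl7 was at 263 and 142 FPKM against 0 in both Cre-negative libraries at P0.5, and Efna2 at 5.23 and 4.85 FPKM against 0 in both. Nsf (15.9 and 4.59 FPKM), Hnrnpm (17.47 and 7.58 FPKM) and Tmem126a (71.4 and 70.1 FPKM against 0.251 and 0) were likewise higher in Cre-positive SC at P0.5, and so was Bcl9 (4.29 and 3.14 FPKM against 0 in both). Mrpl55, Ss18l1, Zfx, Cisd3, Hnrnpc, Casp6 and Otx2 were listed at 0 in all 4 P0.5 libraries.

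Of the 28 named genes lower at E17.5, 16 were separated higher at P0.5, 1 lower, 4 were listed at 0 in all 4 P0.5 libraries and the other 7 were in none of these sets. Smdt1 kept its direction, at 0 in both Cre-positive libraries against 54.5 and 8.83 FPKM. Vps28 was at 652 and 468 FPKM in Cre-positive SC at P0.5 and at 0 and 0.360 FPKM in Cre-negative SC, the reverse of E17.5. Acot7 was at 216 and 98.9 FPKM against 0 in both, and Atp5o at 178 and 132 FPKM against 0 in both. Efnb3, at 11.6 and 5.52 FPKM against 0 in both, and Sema6a, at 14.9 and 9.34 FPKM against 0 and 0.0125, also lay the other way at P0.5. Tvp23b, Atp5k, Hist3h2ba and Dnajc2 were listed at 0 in all 4 P0.5 libraries. Genes listed at 0 in both Cre-negative P0.5 libraries made up 133 of the 220 lower genes (60.5%), 76 of the 103 higher genes (73.8%) and 1238 of all genes tested (42.5%).

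In the 2 retina libraries of E17.5, 101 of the 103 higher genes (98.1%), 209 of the 220 lower genes (95.0%) and 97.8% of all genes tested were above 0 in at least 1. At 1 FPKM or more in both retina libraries were 20 of the higher genes (19.4%), 37 of the lower genes (16.8%) and 1174 of all genes tested (40.3%). The differences between these shares were not tested.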

How the data were processed

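The labels gave each library's stage, Cre status and replicate number. Per the methods and the submitters' processing notes, the authors mapped reads to mm10 with TopHat2 2.0.12 and deposited FPKM estimated with Cufflinks 2.2.1. FPKM is scaled to length and depth, so it holds no counts. The design allowed for this: log2(FPKM + 1) was tested with limma 3.58.1 (statmod 1.5.0, R 4.3.3; trend and robust moderation, no covariate, two-sided, adjusted p under 0.05) on the 4 libraries, for genes at 1 FPKM or more in at least 2. The script was tested on simulated data, where the simulation of depth left out the step with transcript lengths. The spacing of FPKM times transcript length, over genes with 1 transcript, gave the depth (46.5% to 64.4% of spacings lay within 0.1 of a whole number). The spacing with the best fit was taken, so these shares are no independent check. They rest on 45 to 163 genes per library, and Cre-negative library 1 had 71 genes and the lowest share (46.5%). Lengths came from GENCODE M21 (GRCm38), matched by symbol or RefSeq synonym for 98.4% of symbols. Each was the median over a gene's protein-coding transcripts, or over all its transcripts where none was protein-coding. Named were, per direction, the 10 measurable genes with the largest gap and the 3 with the smallest p, then Rpl22, up to 4 separated members and the 2 highest members of each list. Members and the 22 lists were chosen with earlier results of these data known, and 1 list, mitochondrially encoded mRNAs, matched 0 symbols. Alternatives were another pseudocount, filter, scaling, gap or fit, a replicate block and leaving out each library.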

Additional observations from a re-analysis of the deposited data

Results flagged for a closer look

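Among the named genes, 18 lay apart without overlap in 1 direction at E17.5 and in the opposite direction at another stage, with each group again of 2 libraries. The difference between stages was not tested in any of them. At P0.5, 16 genes that at E17.5 had lain lower with the tag lay higher with it. Their log2 differences at P0.5 were 8.89 for Vps28, 7.27 for Atp5o, 7.20 for Acot7, 6.49 for Psmd8, 5.90 for Ndufs7, 5.60 for Clta, 4.65 for Dnajc8, 4.43 for Dctn1, 4.25 for Cdo1, 3.8 for Rpl37, 3.67 for Sema6a, 3.61 for Sparc, 3.18 for Efnb3, 2.92 for Eif4a2, 1.85 for Atp6v0b and 1.57 for Ndufa9. The reverse held for Rpl7, higher at E17.5 and lower at P7.5 (-4.67), and for Tmem126a, higher at E17.5 and lower in the adult (-4.84). At P0.5, 890 of the 2914 genes tested at E17.5 were separated higher and 163 lower, so a higher value there was common among all genes.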

How the results depend on the processing

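The call of 0 genes by limma held under the pseudocounts of 0.1 and 5, no filter, a filter of 5 FPKM, both scalings, plain moderation and without each library in turn. The exceptions were the fit over the 16 SC libraries (15 higher, 42 lower) and the calculation after NOISeq on FPKM (201 higher, 540 lower). The spread that the fit over all stages used was smaller than that of the E17.5 libraries alone, by the median standard error. With the replicate number as a block limma also called 0 genes in either direction, and unadjusted p was under 0.05 for 38 genes higher and 105 lower. By same-numbered pairs, 166 genes were higher and 299 lower by at least 1 in both. The labels do not say what a replicate number marks, and there are only 2 pairs. The differences of replicate 1 minus 2 correlated at 0.565 between the groups, and Cre differences of pair 1 and pair 2 at 0.0118 over the genes. Genes separated higher and lower numbered 30 and 109 with a pseudocount of 5, 40 and 133 with a filter of 5 FPKM, 196 and 331 with any gap, 42 and 118 with a gap of 2, and 16 and 208 among measurable genes, an alternative chosen after seeing the data. Leaving out 1 library gave 222 to 491 higher and 386 to 756 lower, since 3 libraries separate more easily than 4. Doing the same for each gene list was also chosen after seeing the data. Without Cre-positive library 1 they were 222 and 431, without Cre-positive library 2 491 and 511, without Cre-negative library 1 305 and 386, and without Cre-negative library 2 311 and 756.

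Of 83 named genes, 29 changed the sign of their log2 difference under at least 1 alternative, and in each of them the groups overlapped. Another setting turned Eef1a1 (0.24, median-ratio), Bcl2l1 (-0.27, quantile), Rgs5 (0.28, pseudocount 0.1) and Cryaa (0.38 with pseudocount 0.1, 0.22 median-ratio, 0.18 quantile). The cause was not tested. Leaving out 1 library gave differences from -1.52 to 2.2 for Rpl22, -1.16 to 2.56 for Sox11, -2.2 to 3.23 for Pou4f1, -0.80 to 1.63 for Ncam1, -1.95 to 3.07 for Efna5, -0.31 to 1.02 for Syt4, -2.81 to 0.85 for Snap25, -4.60 to 3.01 for Rps15, -3.05 to 2.39 for Eif4a1, -1.15 to 1.0 for Eef1a1, -5.06 to 4.42 for Ndufb9, -3.92 to 3.07 for Cox6a1, -5.96 to 1.90 for Psmb3, -0.73 to 6.92 for Psmc5, -3.19 to 1.86 for H2afy, -0.91 to 0.059 for H2afj, -1.03 to 0.31 for Dctn4, -1.78 to 2.86 for Dync1li1, -3.42 to 1.22 for Srsf2, -1.79 to 2.28 for Hnrnpa0, -1.38 to 1.42 for Bcl2l1, -3.15 to 5.08 for Dbi, -2.21 to 1.30 for Rgs5, -5.90 to 4.74 for Hbb-bs, -7.73 to 1.49 for Hbb-bt, -3.55 to 0.96 for Cryga, -1.64 to 1.46 for Cryaa, -0.0029 to 2.49 for Dnajc18 and -4.96 to 1.98 for Hsp90ab1. No named gene that separated the groups changed sign. With 1 library left out this was fixed in advance, because both libraries of 1 group lay above both of the other. With effective lengths the depths were 7751187, 13026947, 512818 and 14518432 fragments. The depth of Cre-negative library 1 limits what can be said of genes higher in Cre-positive SC.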
